A study of Mus musculus with 6 samples.

Results

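Cyclic AMP is made by adenylyl cyclases, broken down by phosphodiesterases and read by protein kinase A and EPAC proteins, and 10 genes of these kinds were followed in pancreatic islets of mice with and without a knockout of Dpy30. The 10 genes were taken by symbol from GENCODE release vM21, out of 54119 genes with a value in the files: the cyclases Adcy1, Adcy3, Adcy5, Adcy6, Adcy8 and Adcy9, the phosphodiesterases Pde3b and Pde8b, and the effector genes Prkar1a and Rapgef4. Islets of 3 Dpy30 knockout mice and of 3 control mice were compared, 1 library per mouse, all from male C57BL/6 animals at postnatal day 24. Dpy30 encodes a core subunit common to the enzyme complexes that add methyl groups to lysine 4 of histone H3, and the series asks what trimethylation there does for endocrine cells as they mature after birth. The sources used here do not give the driver of the deletion, the cells it reaches or the alleles of the control mice.

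In beta cells, glucose-dependent secretion of insulin is amplified by cyclic AMP, which rises when incretin hormones such as GLP-1 act on receptors coupled to the stimulatory G protein. Membrane cyclases differ in what they answer to: some are stimulated by calcium and calmodulin, others are inhibited by calcium, and nearly all answer to G proteins. Protein kinase A holds its catalytic subunits in check with regulatory subunits until cyclic AMP binds them, while EPAC proteins activate Rap GTPases directly, and the CREB transcription factors act further down.

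The libraries held 17131515 to 23976598 estimated reads in the knockout and 24575889 to 25354384 in the control. Reads assigned to Dpy30 transcripts without exon 4 made up 81.2% ± 0.84 of the gene's reads in the knockout and 3.15% ± 2.46 in the control (SD, n = 3 each), so the genotype labels hold in all 6 libraries. The summed level of Dpy30 was 31.9, 53.2 and 30.7 CPM (counts per 1000000 reads of the TMM-scaled library) in knockout replicates 1 to 3, against 25.6, 30.2 and 31.8 CPM in control replicates 1 to 3. The 10 islet endocrine markers, hormone genes among them, summed to 113530 to 162060 CPM in the knockout and 244220 to 325560 CPM in the control. Of the cell type markers, 4 of 8 beta, 3 of 8 alpha and 2 of 4 tested delta markers fell in the knockout and none rose. The acinar markers summed to 2592 to 16294 CPM in the knockout and 1073 to 3882 CPM in the control, ranges that overlapped. The endothelial markers summed to 774 to 1014 CPM in the knockout and 628 to 731 CPM in the control, and 2 of 8 rose. Of the defining markers, Ptf1a, Cftr, Cd3e and Prg4 had too few reads to be tested. In whole islets, fewer cells of a type and less RNA per cell cannot be told apart, and no batch is given by the labels. Knockout replicate 2 stood apart: the gene model Gm42418 took 158400 CPM there and 1015 to 2145 CPM in the other 5 libraries, and genes with effective lengths above 4000 bases lay at a median of -0.27 on the log2 scale relative to their own 6-library mean there, against 0.00 to 0.11 in the other 5. Of the 10 genes followed here, 7 are of that length.

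None of the 10 genes was called between knockout and control. All 10 passed the filter on low counts, and edgeR's quasi-likelihood test called 0 of 10 at a Benjamini-Hochberg adjusted p below 0.05, while it called 9.95% of the 16430 genes tested. At an unadjusted p below 0.05 it took 3 of 10, namely Adcy5, Pde8b and Prkar1a, and 27.5% of all genes tested. With limma-voom the count was 0. DESeq2 called 1, lower in the knockout (7.31% of all genes rose and 8.75% fell with DESeq2), and the replicate block 1, also lower (6.93% rose and 7.86% fell with the block); both were Adcy5. The log2 fold change (knockout over control) was below 0 for 8 genes and above 0 for 2, with a median of -0.26, where all genes tested had a median of 0.01. Genes with effective lengths above 4000 bases, as 7 of the 10 have, had a median of -0.15 at 5 CPM or more, with 66.9% below 0. Of all genes at 5 CPM or more, 49.5% lay below 0. The part of transcript length in the median of the 10 genes was not tested. Groups did not overlap in CPM for 6 of 10 genes, 5 lower and 1 higher in the knockout, against 34.8% of all genes tested (17.2% lower and 17.6% higher). For 7 of the 10 the 95% interval of the log2 fold change lay within 1 in either direction, while those of Adcy1, Adcy5 and Pde8b reached beyond a change of that size. Knockout replicate 2 was the lowest of the 6 libraries for 6 of the 10 genes.

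**Figure D1:**
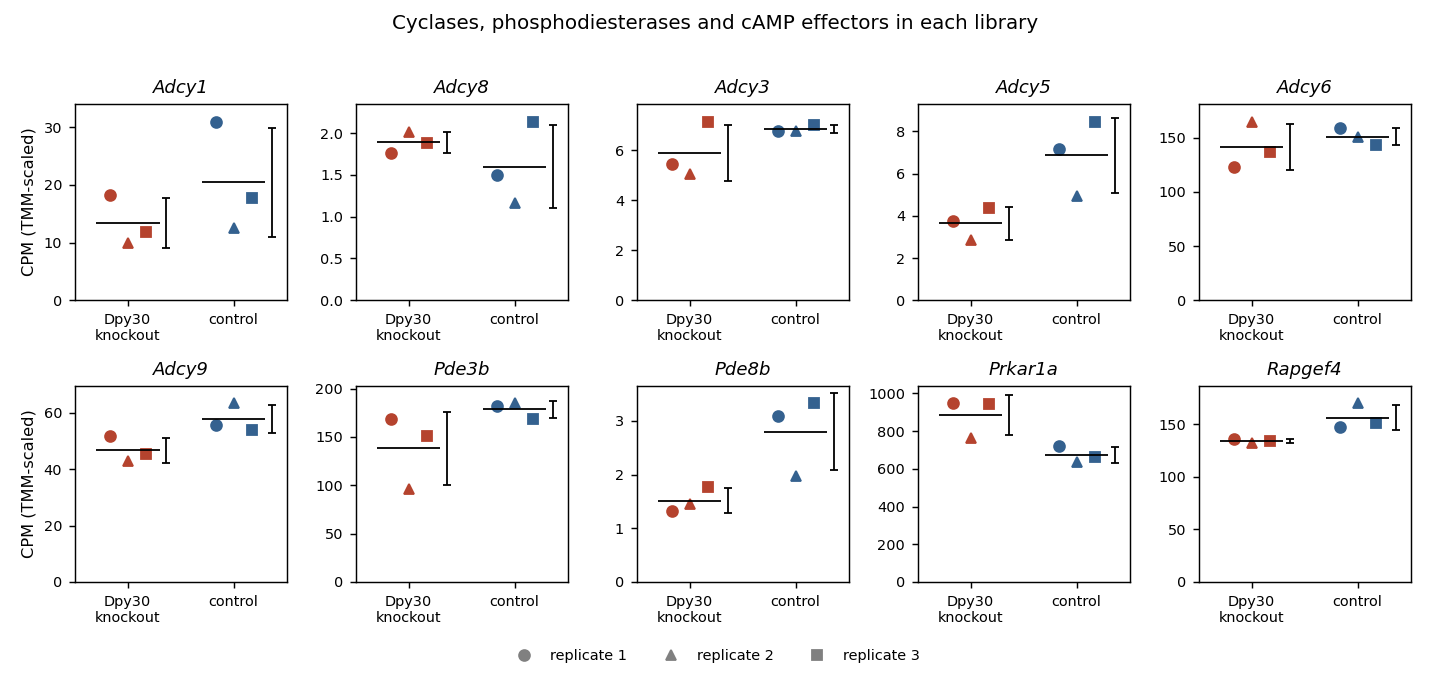
CPM on TMM-scaled libraries of each gene in each library (marker shape gives the replicate), with Dpy30 knockout left of control; lines are group means and bars beside them SD (n = 3). Adcy5, Pde8b, Adcy9, Rapgef4 and Pde3b lay lower in all 3 knockout libraries than in any control library, Pde3b by a narrow margin, and Prkar1a lay higher; the other 4 genes overlapped.

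Adcy6, a cyclase inhibited by calcium and by inhibitory G proteins, was the main cyclase transcript of these islets and did not pass the test. It had 123, 165 and 137 CPM in knockout replicates 1 to 3, against 159, 151 and 143 CPM in control replicates 1 to 3. The groups overlapped, and the highest of all 6 values was that of knockout replicate 2. On the log2 scale the difference was -0.09 (SE 0.15, 95% interval -0.44 to 0.26, edgeR adjusted p 0.733). Its share of the summed TPM of the 10 cyclase genes was 60.1% ± 5.35 in the knockout and 61.4% ± 1.36 in the control (SD, n = 3 each), with a p of 0.8 in the exact two-sided permutation test.

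Adcy9, a widely expressed cyclase that forskolin activates poorly, was the next most abundant. It had 51.7, 43.0 and 45.5 CPM in knockout replicates 1 to 3, against 55.7, 63.3 and 54.0 CPM in control replicates 1 to 3. All 3 knockout values lay below all 3 control values, by a log2 fold change of -0.30 (SE 0.13, 95% interval -0.61 to 0.002, edgeR adjusted p 0.184). Its share of cyclase TPM was 21.6% ± 3.94 in the knockout and 24.4% ± 2.33 in the control, and there the groups overlapped.

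Adcy5, like Adcy6 a cyclase inhibited by calcium, had the smallest p of the 10 genes. The counts behind it were 45 to 116 estimated reads in the knockout and 115 to 206 in the control. It had 3.73, 2.84 and 4.36 CPM in knockout replicates 1 to 3, against 7.18, 4.95 and 8.46 CPM in control replicates 1 to 3. The groups did not overlap, although the highest knockout library lay close to the lowest control library, which was replicate 2 of that group. Its log2 fold change was -0.91 (SE 0.29, 95% interval -1.57 to -0.24), a level 1.87 times as high in the control, with an edgeR adjusted p of 0.0872. A fit with the replicate block gave an adjusted p of 0.0318 and DESeq2 one of 0.0296, both past the threshold; over the fits that left out 1 library it ran from 0.0829 to 0.244. The authors' deposited table gives Adcy5 a value of -0.71 on the log2 scale (adjusted p 0.039). It is the only one of the 10 genes below 0.05 there, as are 2471 of the 17128 genes to which that table gives an adjusted p. Its share of cyclase TPM was 1.20, 0.776 and 1.31% in knockout replicates 1 to 3, against 1.95, 1.37 and 2.28% in control replicates 1 to 3, which did not overlap. The exact permutation p of that share was 0.1, the smallest that 3 against 3 libraries allow. The promoter of Adcy5 is shown because it is rich in CG dinucleotides, the kind of promoter that carries histone H3 lysine 4 trimethylation in many cell types; the capitals mark each CG. The 300 bases are from RefSeq on GRCm38.p6, chr16:35154614-35154913, plus strand, 250 bases before to 50 after the RefSeq start, which lies 13 bases from the start of Adcy5-201.
Adcy5 promoter: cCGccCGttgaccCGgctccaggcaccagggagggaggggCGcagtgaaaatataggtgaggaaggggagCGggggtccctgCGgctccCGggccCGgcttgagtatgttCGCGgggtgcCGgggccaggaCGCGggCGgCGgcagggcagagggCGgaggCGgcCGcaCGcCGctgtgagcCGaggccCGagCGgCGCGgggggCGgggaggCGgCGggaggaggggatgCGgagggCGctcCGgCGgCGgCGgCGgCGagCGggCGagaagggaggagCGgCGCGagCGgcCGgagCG
The window holds 44 CG dinucleotides, and 2.25% of the 32817 RefSeq promoter windows hold as many or more, with a median of 7. The richest window of each of the 7 genes with one in the RefSeq table held 33 to 46, a range in which Adcy5 did not stand apart.

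Adcy1 and Adcy8, the cyclases stimulated by calcium and calmodulin, did not pass the test. Adcy1 had 18.3, 10.02 and 11.9 CPM in knockout replicates 1 to 3, against 31.0, 12.6 and 17.8 CPM in control replicates 1 to 3. In each group replicate 1 was the highest library, and the groups overlapped. The log2 fold change was -0.61 (SE 0.36, 95% interval -1.42 to 0.21, edgeR adjusted p 0.309). Without control replicate 1 it was -0.18, and without knockout replicate 1 it was -0.90. With the replicate block the log2 fold change of Adcy1 was -0.56 (edgeR adjusted p 0.0512). Adcy8 was the lowest of the 10 in CPM per kilobase of effective length. It had 26.7 to 52.5 estimated reads per library over both groups. Its level was 1.77, 2.02 and 1.88 CPM in knockout replicates 1 to 3, against 1.502, 1.16 and 2.14 CPM in control replicates 1 to 3. Its highest value was control replicate 3, and the interval of its log2 fold change, -0.50 to 0.97, leaves room for changes of either sign.

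Adcy3, known as the cyclase of olfactory cilia and of primary cilia in other cells, had 5.46, 5.04 and 7.15 CPM in knockout replicates 1 to 3, against 6.76, 6.76 and 7.02 CPM in control replicates 1 to 3. Knockout replicate 3 was the highest of the 6 libraries and the other knockout libraries the lowest. The log2 fold change was -0.22 (SE 0.22, 95% interval -0.72 to 0.29, edgeR adjusted p 0.569). Adcy3 overlaps Cenpo on the opposite strand, a gene of similar level with 5.22 CPM in the knockout and 6.15 CPM in the control; the libraries were made strand-specific, but the sources used here do not say whether Salmon used the strand.

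Of the 3 tested cyclases outside the 10 genes edgeR called 0 (2 at an unadjusted p below 0.05, 1 with DESeq2 and 1 with the replicate block). Adcy4, which answers to G protein beta-gamma subunits, had 9.03, 10.97 and 13.01 CPM in knockout replicates 1 to 3, against 6.18, 4.95 and 7.23 CPM in control replicates 1 to 3, a log2 fold change of 0.85 (SE 0.23). Its edgeR adjusted p was 0.0597, and 0.0339 with the replicate block. Its share of cyclase TPM was 8.46% ± 1.61 in the knockout and 3.89% ± 0.15 in the control (SD, n = 3 each), without overlap, exact permutation p 0.1. The endothelial marker sum was likewise higher in the knockout in all 3 libraries, as given above, and its part in the Adcy4 values was not tested. The level of all 10 cyclase genes summed, in CPM per kilobase of effective length, was 49.1 ± 3.36 in the knockout and 52.6 ± 2.2 in the control, which overlapped (exact permutation p 0.3). Within that sum the shares of 3 of the 10 genes, Adcy4, Adcy5 and Adcy7, did not overlap between groups. In CPM, a different measure from these shares, 34.8% of all genes tested did not overlap. No background was computed for shares within a family, so the count is a description only.

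**Figure D2:**
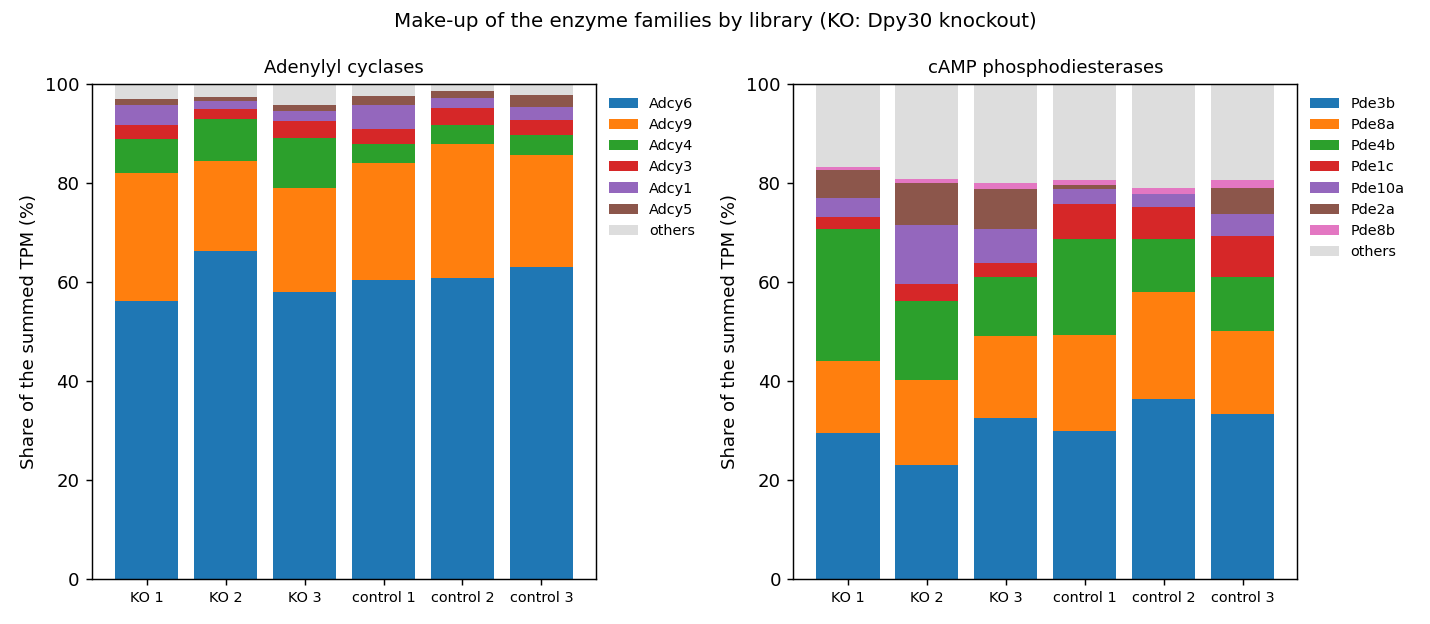
Share of each gene in the summed TPM of the 10 adenylyl cyclase genes (left) and of the 16 cyclic AMP phosphodiesterase genes (right), in percent, by library, Dpy30 knockout (KO) left of control. Adcy6 held 56.2 to 66.2% of cyclase TPM in the knockout and 60.4 to 62.9% in the control, and Pde1c held 2.38 to 3.43% of phosphodiesterase TPM in the knockout and 6.45 to 8.35% in the control.

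Pde3b, the phosphodiesterase that insulin signalling activates and cyclic GMP inhibits, was the most abundant phosphodiesterase transcript in the mean of each group. It had 169, 96.0 and 151 CPM in knockout replicates 1 to 3, against 182, 185 and 169 CPM in control replicates 1 to 3. Knockout replicate 2 was far below the other 5, and knockout replicate 1 and control replicate 3 were nearly equal, so that the groups only just failed to overlap. Knockout over control, the log2 fold change was -0.37 (SE 0.21, 95% interval -0.85 to 0.12, edgeR adjusted p 0.3), and -0.16 without knockout replicate 2, the library in which long transcripts as a whole were low. Its share of phosphodiesterase TPM was 28.2% ± 4.82 in the knockout and 33.2% ± 3.27 in the control, with overlap (exact permutation p 0.2).

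Pde8b, a phosphodiesterase of high affinity for cyclic AMP that the common inhibitor IBMX does not block, rested on 23 to 47 estimated reads in the knockout and 46.1 to 81 in the control. It had 1.32, 1.45 and 1.77 CPM in knockout replicates 1 to 3, against 3.09, 1.98 and 3.33 CPM in control replicates 1 to 3. All knockout values lay below all control values, with control replicate 2 nearest to them. With -0.88 on the log2 scale (SE 0.32, 95% interval -1.61 to -0.16), its edgeR adjusted p was 0.117, and 0.117 to 0.296 over the fits that left out 1 library.

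Of the 14 other phosphodiesterase genes, all tested, 1 fell and 0 rose; with the replicate block 2 fell and 1 rose, and DESeq2 called 3. The one edgeR called without the block was Pde1c, a calcium- and calmodulin-stimulated phosphodiesterase, with 10.5, 12.7 and 11.6 CPM in knockout replicates 1 to 3, against 38.7, 24.7 and 34.9 CPM in control replicates 1 to 3 (log2 fold change -1.498, SE 0.20, edgeR adjusted p 0.0044). Its share of phosphodiesterase TPM was 2.89% ± 0.53 in the knockout and 7.25% ± 0.98 in the control (SD, n = 3 each), without overlap. The groups did not overlap for 5 of the 16 phosphodiesterase shares, none of them that of Pde3b or Pde8b. In CPM, a different measure from these shares, 34.8% of all genes tested did not overlap. As for the cyclases, no background was computed for shares within a family, and the count is a description only. The summed level of the 16 genes was 89.8 ± 11.8 CPM per kilobase in the knockout and 97.7 ± 10.6 in the control, with overlap.

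Prkar1a, the type I alpha regulatory subunit of protein kinase A, was the most abundant of the 10 genes and one of the pair with a positive log2 fold change. It had 946, 764 and 945 CPM in knockout replicates 1 to 3, against 719, 636 and 665 CPM in control replicates 1 to 3. Every knockout library lay above every control library, with knockout replicate 2 nearest to the control. Its log2 fold change was 0.40 (SE 0.16, 95% interval 0.02 to 0.77), with an edgeR adjusted p of 0.161, and 0.0631 to 0.374 over the fits that left out 1 library.

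Prkar1a made up more of the regulatory subunit transcripts in the knockout and Prkar1b less. Among the 4 regulatory subunit genes, a grouping chosen after its values were seen and given without a test, Prkar1a held 81.1, 82.4 and 80.7% of the TPM in knockout replicates 1 to 3, against 70.5, 70.2 and 71.1% in control replicates 1 to 3. Prkar1b held 8.10, 7.79 and 8.31% in knockout replicates 1 to 3, against 19.8, 18.6 and 18.5% in control replicates 1 to 3. Within each group the shares were within 2 percentage points of each other. Prkar1b, the type I beta subunit known from neurons, was itself called, with 66.0, 53.3 and 73.2 CPM in knockout replicates 1 to 3, against 161, 133 and 132 CPM in control replicates 1 to 3 (log2 fold change -1.14, SE 0.17, edgeR adjusted p 0.00602). Prkar2a and Prkar2b held 2.71% ± 0.70 and 7.82% ± 0.30 in the knockout, against 2.95% ± 0.36 and 7.49% ± 0.50 in the control (SD, n = 3 each). Of the 8 kinase subunit and inhibitor genes of the list 1 fell, Prkar1b, and the others were not called, among them the catalytic subunits Prkaca (log2 fold change -0.30) and Prkacb (-0.55).

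The transcripts of Prkar1a start at separate sites, which is why both promoters are shown. Prkar1a-201 and Prkar1a-203 have identical coding exons of 381 codons and start 1516 bases apart on chromosome 11, with Prkar1a-203 upstream. In the lines that follow, capitals mark TGACGTCA, the letters of the palindromic cyclic AMP response element, and TGACG or its reverse complement CGTCA, the element's shorter form. Both were read from RefSeq on GRCm38.p6, plus strand: chr11:109650699-109650998, whose RefSeq start lies 28 bases from that of Prkar1a-201, and chr11:109649113-109649412, whose start lies 42 bases from that of Prkar1a-203.
Prkar1a-201 promoter: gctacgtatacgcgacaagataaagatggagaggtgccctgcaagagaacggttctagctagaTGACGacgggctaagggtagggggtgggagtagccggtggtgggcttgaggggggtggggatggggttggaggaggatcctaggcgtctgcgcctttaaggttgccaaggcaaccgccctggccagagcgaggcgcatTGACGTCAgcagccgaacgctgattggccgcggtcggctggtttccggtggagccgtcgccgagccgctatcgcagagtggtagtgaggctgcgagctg
Prkar1a-203 promoter: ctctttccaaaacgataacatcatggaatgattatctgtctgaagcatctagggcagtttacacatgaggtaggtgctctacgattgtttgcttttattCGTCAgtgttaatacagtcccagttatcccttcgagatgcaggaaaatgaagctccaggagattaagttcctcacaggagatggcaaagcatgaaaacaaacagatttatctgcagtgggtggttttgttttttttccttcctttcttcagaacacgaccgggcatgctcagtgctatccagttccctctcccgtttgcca
TGACGTCA stood 41 bases before the RefSeq start in the Prkar1a-201 window and is held by 1.79% of the 32817 windows. TGACG on either strand, which TGACGTCA contains, is held by 20.8% of windows, and the Prkar1a-203 window has it once without the longer form. Of the 7 genes with a window, Prkar1a alone held TGACGTCA. A match describes letters and no binding was measured.

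Prkar1a-201 took a larger share of the gene's TPM in the knockout. It held 60.0, 61.1 and 62.4% in knockout replicates 1 to 3, against 46.1, 52.6 and 56.5% in control replicates 1 to 3. The groups did not overlap, and the control libraries were spread more widely than the knockout libraries (exact permutation p 0.1). Prkar1a-203 held 35.2, 29.7 and 34.1% in knockout replicates 1 to 3, against 43.5, 39.5 and 37.9% in control replicates 1 to 3, again without overlap. Salmon assigned 7875 to 15881 reads to Prkar1a-201 in the knockout and 8122 to 9420 in the control. The exact 95% binomial intervals of its share of reads ran from 60.6 to 65.8% over the knockout libraries and from 48.4 to 59.0% over the control libraries. They count every estimated read of the gene as if its transcript were known, so they are too narrow for the split. Because the transcripts share their coding exons, the split depends on reads from the first exons and on Salmon's estimate.

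**Figure D3:**
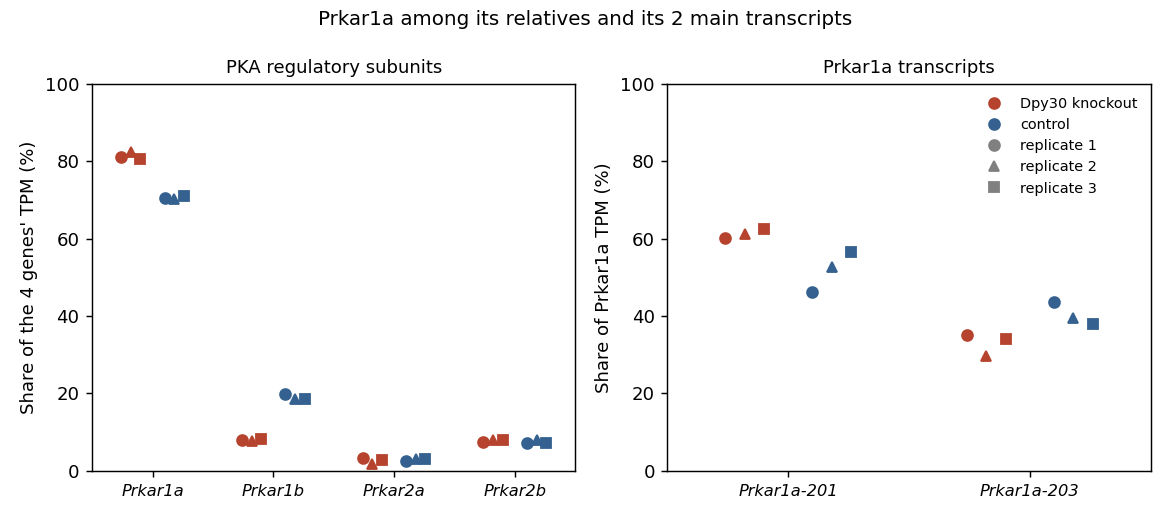
Left, share of each protein kinase A regulatory subunit gene in the TPM of the 4 genes; right, share of Prkar1a-201 and Prkar1a-203 in the TPM of Prkar1a; percent per library, Dpy30 knockout in red left of control in blue. Prkar1a lay at 80.7 to 82.4% in the knockout and 70.2 to 71.1% in the control, and Prkar1a-201 at 60.0 to 62.4% in the knockout and 46.1 to 56.5% in the control.

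Rapgef4, which encodes EPAC2, the cyclic AMP-driven exchange factor that acts at insulin granules, had nearly constant levels within the knockout. It had 136, 132 and 134 CPM in knockout replicates 1 to 3, against 148, 170 and 151 CPM in control replicates 1 to 3. The groups did not overlap, and control replicate 2 was the highest. The log2 fold change was -0.22 (SE 0.13, 95% interval -0.52 to 0.07, edgeR adjusted p 0.3). The long form Rapgef4-202, of 1011 codons, held 73.0 to 84.6% of the gene's TPM in the knockout and 74.5 to 82.8% in the control.

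The transcript forms of the other genes gave no call. Of 59 transcripts of the 10 genes, 24 passed the filter and edgeR called 0, against 0.416% of the 42104 transcripts tested; with the replicate block the count was 0 for the 10 genes and also 0 over all transcripts, so the lack of calls in the transcript fit says little. Of the 25 transcripts with at least 10% of their gene in either group, 17 were tested and 2 of these had an unadjusted p below 0.05, where 12.3% of all transcripts tested did. The shares of 3 of the 25 did not overlap between groups, where 10.3% of the 33876 transcripts chosen by the same rule over all tested genes did not: Prkar1a-201, Prkar1a-203 and Pde8b-207. Pde8b-207 held 0% in all 3 knockout libraries and 9.63 to 31.0% in the control. Adcy8 went wholly to Adcy8-201 in knockout replicate 1 and the 3 control libraries, and wholly to Adcy8-202 in knockout replicates 2 and 3. At the read numbers of Adcy8 and Pde8b, such all-or-none assignments are not measurements of transcript use. Adcy9-202, of 1353 codons, held 74.5% ± 7.49 in the knockout and 79.6% ± 4.77 in the control, with the rest in the shorter Adcy9-203. Pde3b-201, the full coding form of 1099 codons, held 81.6% ± 5.98 in the knockout and 85.0% ± 2.98 in the control, with overlap. By reads it held nearly all, 1467 to 4278 per library, against 38.0 to 72.7 for Pde3b-203, a form that keeps an intron. The coding form Adcy6-201 held 60.0% ± 1.66 of Adcy6 TPM in the knockout and 56.8% ± 8.31 in the control, with overlap. Adcy6-202, which keeps an intron, and Adcy6-207, marked for nonsense-mediated decay, are counted in the cyclase shares above.

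Set beside each other per length, the genes fell into separate ranges of level. In CPM per kilobase of effective length, Prkar1a averaged 290.0 ± 34.3 in the knockout and 221 ± 13.8 in the control (SD, n = 3 each), above all others in every library. Rapgef4 followed with 38.8 ± 0.58 in the knockout and 45.2 ± 3.43 in the control. Pde3b (25.04 ± 6.84 in the knockout and 32.3 ± 1.55 in the control) and Adcy6 (29.9 ± 4.48 in the knockout and 31.8 ± 1.71 in the control) did not differ beyond their spread over the 6 libraries. Adcy9 averaged 10.6 ± 1.01 in the knockout and 13.1 ± 1.13 in the control, below both. Next, with overlapping ranges from each neighbour to the next, came Adcy1, Adcy3, Pde8b and Adcy5, whose control means ran from 1.70 down to 1.01. Adcy8 averaged 0.278 ± 0.02 in the knockout and 0.235 ± 0.07 in the control, the lowest.

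The rest of the pathway was examined in 12 lists of 122 genes, of which 107 were tested. In the knockout 9 fell and 4 rose, or 12.15% called, beside 9.95% of all genes, of which 5.84% fell and 4.10% rose. With the replicate block 20 of these 107 genes were called, where 14.8% of all genes were. With DESeq2 22 were called, where 16.1% of all genes were. The list median of the log2 fold change was -0.09.

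Receptors accounted for 6 of the 13 calls. Of 15 tested receptors that raise cyclic AMP, 3 fell and 0 rose. Glp1r, the GLP-1 receptor, had 185, 130 and 202 CPM in knockout replicates 1 to 3, against 527, 915 and 498 CPM in control replicates 1 to 3, a log2 fold change of -1.91 (SE 0.29, edgeR adjusted p 0.00707). Gcgr, the glucagon receptor, had 0.401, 2.90 and 1.39 CPM in knockout replicates 1 to 3, against 23.0, 27.6 and 27.1 CPM in control replicates 1 to 3 (log2 fold change -4.11, SE 0.55). Gpr119, a receptor for fatty acid amides, had 1.77, 6.43 and 4.36 CPM in knockout replicates 1 to 3, against 27.3, 43.6 and 48.8 CPM in control replicates 1 to 3 (log2 fold change -3.27, SE 0.44). In none of these genes did the groups come near to overlapping. Of 10 tested receptors that lower cyclic AMP, 3 fell and 0 rose: the somatostatin receptor Sstr3 (log2 fold change -1.55), the galanin receptor Galr1 (-1.34) and the adenosine receptor Adora1 (-1.72). With the replicate block 3 fell and 1 rose among receptors that raise cyclic AMP, and 4 fell and 1 rose among those that lower it; DESeq2 called 4 of each. The 6 named receptor genes were called in each of the 6 fits that left out 1 library.

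**Figure D4:**
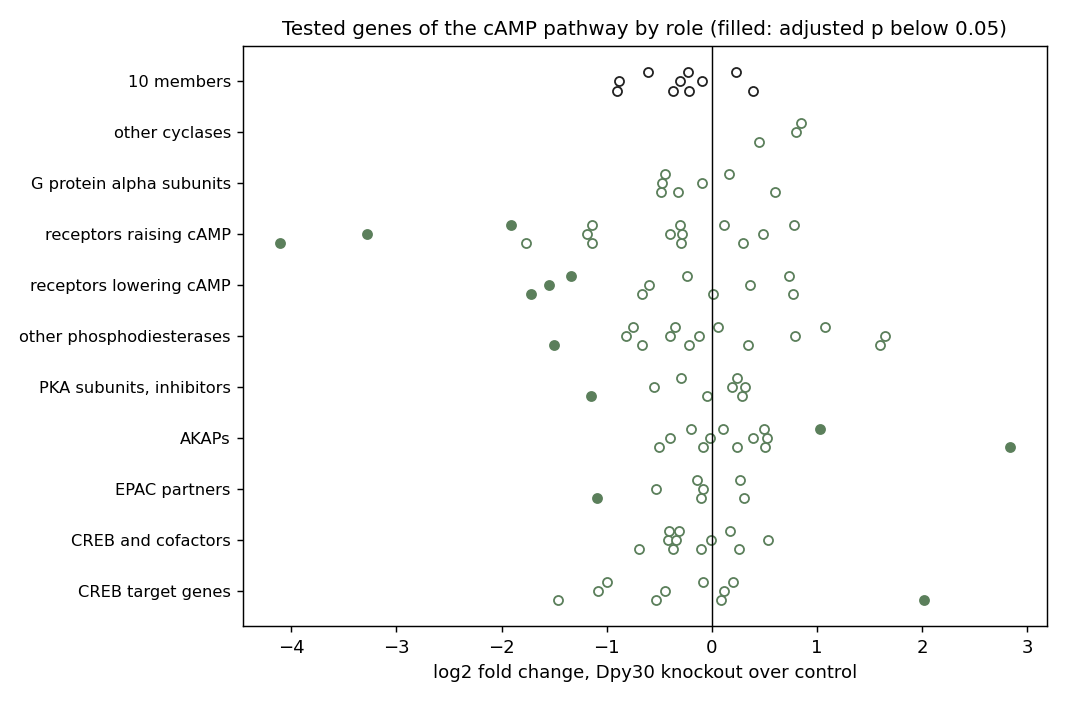
Log2 fold change (Dpy30 knockout over control) of the tested genes of the pathway lists described in the text, 1 row per list with the 10 genes followed here at the top; each point is a gene, filled where the adjusted p was below 0.05. The 10 genes lie between -0.91 and 0.40 with none filled, while filled points are most frequent among receptors, 6 of 25.

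Between receptor and effector, 0% of the G protein alpha subunit genes, 14.3% of the EPAC partners and 15.4% of the tested kinase anchoring proteins were called. Over all genes tested the share was 9.95%. Of the 7 G protein alpha subunit genes edgeR called 0 (3 at an unadjusted p below 0.05, 1 called by DESeq2 and 1 with the replicate block), and Gnas, the stimulatory subunit and the most abundant, had 1385, 860 and 1438 CPM in knockout replicates 1 to 3, against 1463, 1476 and 1665 CPM in control replicates 1 to 3. Of the 7 EPAC partners, 1 fell: Rap1gap, which switches Rap1 off, had 30.1, 33.3 and 35.2 CPM in knockout replicates 1 to 3, against 74.3, 73.6 and 62.3 CPM in control replicates 1 to 3 (log2 fold change -1.09, SE 0.13, edgeR adjusted p 0.0036). Of 13 tested kinase anchoring proteins 2 rose. Akap6, the anchor known from the nuclear envelope of muscle cells, had 39.0, 27.6 and 40.7 CPM in knockout replicates 1 to 3, against 17.02, 17.4 and 18.3 CPM in control replicates 1 to 3 (log2 fold change 1.03, SE 0.17, edgeR adjusted p 0.0109). Akap3, an anchor known from sperm, rose by a log2 fold change of 2.84 at 0.562 to 1.17 CPM in the knockout and 0.041 to 0.172 CPM in the control, where it had few reads. Akap3 kept its call in 3 of the 6 fits that left out 1 library. With the mean acinar marker level as a covariate, the log2 fold changes were 0.85 for Akap6 (adjusted p 0.0841) and 2.25 for Akap3 (adjusted p 0.0938), neither past the threshold; that fit called 621 genes in all, against 1634 without the covariate.

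At the far end of the pathway, 0 of 11 CREB factors and cofactors were called by edgeR (2 at an unadjusted p below 0.05, 1 by DESeq2 and 0 with the replicate block). Ep300, a coactivator acetyltransferase, was the most abundant of them in the mean of the 6 libraries, though not in every library. Ep300 had 89.1 to 92.4 CPM in the knockout and 117 to 125 CPM in the control (log2 fold change -0.41, SE 0.12, edgeR adjusted p 0.0645). Of 10 tested CREB target genes 1 rose, Ppargc1a, a coactivator of mitochondrial genes, with 15.1, 5.17 and 6.69 CPM in knockout replicates 1 to 3, against 3.25, 2.11 and 1.31 CPM in control replicates 1 to 3 (log2 fold change 2.02, SE 0.49, edgeR adjusted p 0.0386). That call held in 2 of the 6 fits that left out 1 library, and with the acinar covariate its log2 fold change was 1.76 (adjusted p 0.173).

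**Figure D5:**
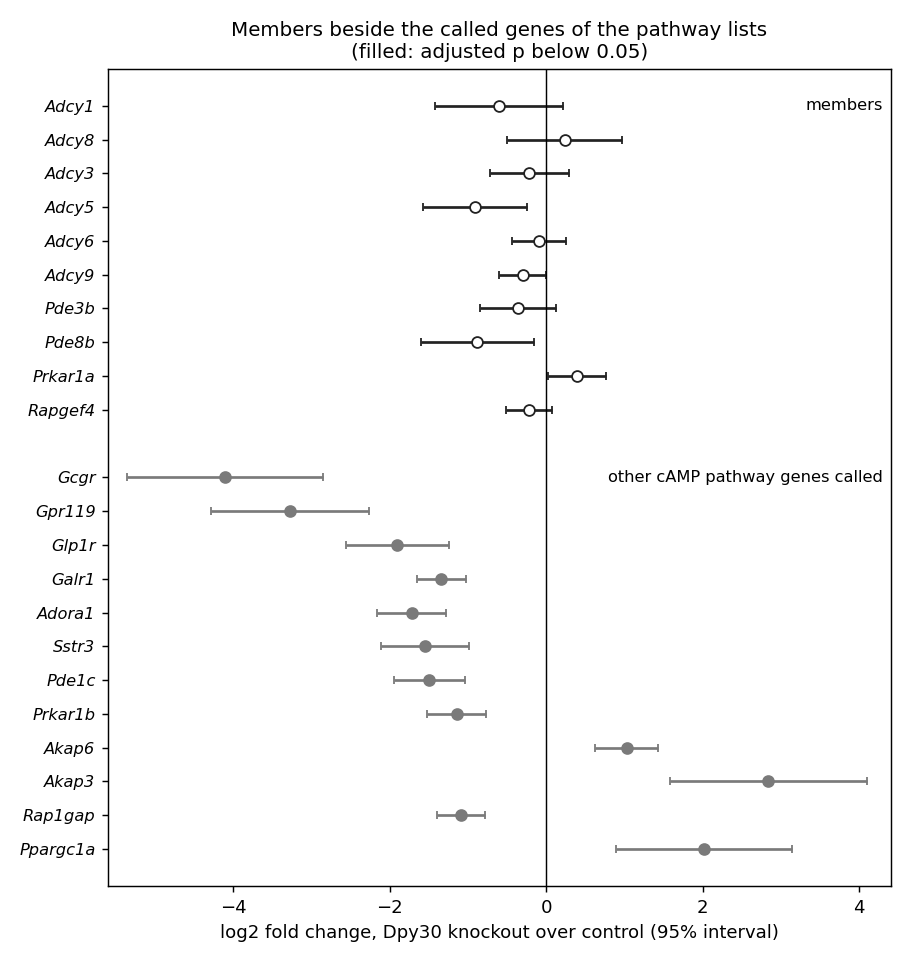
Log2 fold change (Dpy30 knockout over control) with its 95% interval for the 10 genes (top) and for the called genes of the pathway lists described in the text (bottom); filled points have an adjusted p below 0.05. The interval of Adcy5 runs from -1.57 to -0.24 and that of Glp1r from -2.57 to -1.25.

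The genes whose pattern over the 6 libraries came closest to that of Adcy5 were sought among 11596 genes of at least 5 CPM, by the root mean square difference of log2 CPM after each gene's mean was taken off. They were Nxph1 (0.101), Cacng4 (0.101), Ghsr (0.12), Dnajb9 (0.145) and Ankrd6 (0.151). Nxph1 had 6.50, 5.42 and 7.26 CPM in knockout replicates 1 to 3, against 13.3, 10.03 and 16.8 CPM in control replicates 1 to 3, the same order of libraries within each group as Adcy5. This likeness covers 6 libraries and describes them only.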

How the data were processed

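Each of 6 libraries held 100 to 200 islets of one male mouse, and 1000 ng of RNA went into poly(A) selection and a strand-specific kit with 9 cycles, per the labels' protocols. Trimmomatic, Salmon and DESeq2, with GRCm38 and mm10, are named in the submitters' processing notes, without versions or settings. Per library the authors deposited Salmon estimated counts and TPM per transcript, per the file headers. The authors also deposited log2 fold changes and p-values of their own comparison. A deposited gene table of 6 scaled columns was not used.

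By transcript identifier in GENCODE vM21 139852 of 140948 transcripts were matched. Estimated counts were summed per gene, rounded, filtered by filterByExpr (minimum count 10), scaled by TMM and tested with edgeR 4.0.16 (quasi-likelihood; R 4.3.3), with group as the only term and Benjamini-Hochberg adjustment at 0.05, two-sided, over 16430 genes. The SE is the size of the log2 fold change over the square root of its F statistic. Levels between genes are CPM over median effective length, and shares are of TPM. The procedure was tested on simulated data. Alternatives were DESeq2 1.42.0, limma-voom (limma 3.58.1), other scaling, no filter, a length offset, a replicate block, an acinar covariate, leaving out each library and, chosen after seeing the data, leaving out Gm42418.

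The members and lists were chosen with earlier results of these data known. From each pathway list up to 4 genes with the smallest p among those called were named, or the most abundant gene where none was called, which for the other cyclases is Adcy4. Adcy7, Prkaca and Prkacb, the Prkar2 genes, Cenpo and Gm42418 were named after their values were seen, as were Pde4b and the CREB targets given in the closing observations. A few results that this rule takes in are left out of the text and plots.

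Replicate numbers are shared between groups in the labels, which do not say what a number marks. Deviations from group means correlated at 0.523, 0.125 and 0.178 for same-numbered libraries, each over the 0.1 set for reading the numbers as pairs. The other pairs ran from -0.399 to 0.224. Among them, knockout replicate 2 with control replicate 3 (0.224) and knockout replicate 3 with control replicate 2 (0.124) also passed 0.1. Deviations are taken from the means of the same libraries, so these values are not independent. They do not single out same-numbered libraries as pairs, and the replicate block is given only as an alternative to the main fit. Labels call the libraries biological replicates, 1 mouse each.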

Additional observations from a re-analysis of the deposited data

How the results depend on the processing

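The direction of each of the 10 genes was the same in all 14 alternatives run: 8 log2 fold changes lay below 0 and 2 above. Called among the 10 were 0 by edgeR, 1 with DESeq2 and 1 with the replicate block (both Adcy5), and 0 in every fit that left out 1 library. The replicate block changed no other call of the 10 genes; over all genes it called 2430. Over all genes 1634 were called, 2633 by DESeq2, 621 with the acinar covariate and 737 to 1330 when 1 library was left out; the cause was not tested. In the pathway lists 13 genes were called, 22 by DESeq2, 20 with the replicate block and 11 to 13 without 1 library. The shares that did not overlap numbered 3 to 5 for cyclases, 5 to 10 for phosphodiesterases and 3 to 8 for transcripts when 1 library was left out; smaller groups overlap less often by construction. Transcript calls were 0 in every fit that left out 1 library. Depth limits Adcy8 and Pde8b most, at 23 to 81 estimated reads.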

Other observations

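CREB target genes, several of which are immediate early genes, varied widely between libraries of the same group. Nr4a1, an orphan nuclear receptor induced by cyclic AMP, had 429, 139 and 55.2 CPM in knockout replicates 1 to 3, against 1191, 36.1 and 87.5 CPM in control replicates 1 to 3. Nr4a3, its relative, had 34.6, 1.95 and 3.80 CPM in knockout replicates 1 to 3, against 33.9, 0.56 and 0.78 CPM in control replicates 1 to 3. Irs2, the insulin receptor substrate, had 122, 59.6 and 41.7 CPM in knockout replicates 1 to 3, against 479.65, 78.4 and 55.2 CPM in control replicates 1 to 3. Replicate 1 of either group was the highest of the 6 libraries for 8 of the 10 tested targets. Within the knockout alone, replicate 1 was the highest for 7 of the 10. Fos went the other way there, with 275, 1595 and 972 CPM in knockout replicates 1 to 3, as did Dusp1 with 51.4, 192 and 135 CPM. Junb was highest in knockout replicate 2. Among the control libraries alone, the highest value was more than 10 times the lowest for 6 of the 10. Adcy1 and the phosphodiesterase Pde4b were, like Nr4a1, Nr4a3 and Irs2, highest in replicate 1 within each group. Pde4b had 91.2, 42.3 and 33.2 CPM in knockout replicates 1 to 3, against 68.1, 29.6 and 33.3 CPM in control replicates 1 to 3, and its log2 fold change of 0.35 had an edgeR adjusted p of 0.648.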
